A study of Mus musculus with 2 samples.

Results

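The transglutaminase genes Tgm1, Tgm2, Tgm3, Tgm5, Tgm7 and F13a1, were compared between the intestine of ERAP1 wild-type (WT) and heterozygous ERAP1+/- mice. The 6 members were found by their gene symbols among 40879 symbols. The set was chosen by measured reads of these same libraries, in which Tgm3 had many reads in both while epidermal genes were lower in ERAP1+/-, so the members' levels and differences are given as a description. Both groups were C57BL/6 mice that received neither dextran sulfate sodium nor sulfasalazine, were 8 weeks old when assigned and drank plain water for 28 days. The methods call the mice germ-free and place them in a pathogen-free facility, and their sex is not given in the sources used here. The tissue is called intestine in the labels and methods and colon elsewhere in the study's text. The ERAP1+/- mice carried 1 copy of Erap1 made from the tm1a allele by a cross with a Cre strain, which removes exons 6 and 7, and the promoter that drives Cre is not given in the sources used here. RNA of intestine tissue from 3 mice was pooled for each genotype and sequenced from the 3' ends of transcripts as 1 library per genotype, so no difference has a replicate check and no p-value is given. Intervals are 95% intervals that cover counting error only and not the variation between mice.

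Transglutaminases are calcium-dependent enzymes that join a glutamine of one protein to a lysine of another, which leaves a bond that most proteases do not cut. In the epidermis, TGM1, TGM3 and TGM5 build the cornified envelope, the cross-linked protein shell of the outermost cells, from substrates such as loricrin, involucrin and filaggrin. TGM2 is found in many tissues and acts both inside cells and in the extracellular matrix, and it is the autoantigen of coeliac disease. F13a1 encodes the catalytic A subunit of coagulation factor XIII, which cross-links fibrin.

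Depth was alike, at 8114826 reads for WT and 8907515 for ERAP1+/-, with mitochondrial features at 13.8% and 14.0% of them. Levels are reads per 1000000 counted reads (CPM) after TMM scaling, which adjusts library sizes by the trimmed mean of gene-wise ratios, or log2(CPM + 1). Counts of genes past 2-fold use log2(CPM + 1), on which a gene with few reads differs less than by its ratio of CPM. A count of 0 allows up to 3 reads (0.386 CPM in WT and 0.322 CPM in ERAP1+/-). Erap1, the targeted gene, had 229 reads in WT and 2 in ERAP1+/-, a ratio of 0.00730 (95% interval 0.000878 to 0.0267), lower than the loss of 1 of 2 copies alone would leave. The kit reads the 3' ends of transcripts, outside the deleted exons, but where the reads of Erap1 lie was not examined. ERAP1+/- stands below for the library labelled so. All 14 markers of intestinal epithelium had at least 10 reads over both libraries and none differed more than 2-fold. Markers of other tissues stood apart. In ERAP1+/-, all 18 suprabasal epidermis genes were lower by more than 2-fold, as were 9 of 12 genes of stratified basal epithelium. So were 15 of 16 skeletal muscle genes and all 13 hair follicle genes with enough reads, of 16 listed, 11 of these 13 at 0 in ERAP1+/-. A gene with 0 reads in ERAP1+/- reached 10 reads through WT alone, so it could only count as lower. Reads summed over each whole list were 29896 and 515 (suprabasal), 7487 and 4394 (basal), 2386 and 17 (hair follicle) and 10508 and 210 (muscle). Most of the basal reads in ERAP1+/- came from the 3 genes within 2-fold. These were Dst (1385 and 1394 reads), Itga6 (1839 and 1907) and Itgb4 (951 and 699). Xist had 1635 and 6451 reads, and 4 Y-linked genes had 612 and 46 reads together. Genotype, pool and these differences in tissue and sex-linked genes cannot be told apart with 1 library each.

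The coding sequence around the catalytic cysteine shows what the 6 members share there and how far they differ. The kit reads 3' ends, so this stretch says little on whether a read can be given to a single gene. The longest stretches shared by whole transcripts, given below, bear on that. Each stretch is 63 bases of the GENCODE transcript on GRCm38, 5′ to 3′ in the sense of the gene, with the codon of the catalytic cysteine in capitals.
Tgm3: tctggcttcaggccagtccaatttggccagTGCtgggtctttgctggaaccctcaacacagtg
Tgm1: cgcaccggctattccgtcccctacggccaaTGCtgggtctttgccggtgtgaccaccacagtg
Tgm5: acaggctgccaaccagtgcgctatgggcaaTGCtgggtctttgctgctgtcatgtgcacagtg
Tgm2: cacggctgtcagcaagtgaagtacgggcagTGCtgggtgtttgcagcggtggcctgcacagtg
F13a1: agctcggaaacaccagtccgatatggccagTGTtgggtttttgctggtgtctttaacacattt
Tgm7: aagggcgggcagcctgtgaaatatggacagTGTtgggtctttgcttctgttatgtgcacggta

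All 6 genes keep the cysteine codon, and 23 of the 63 positions hold the same base in all of them. Against Tgm3, 43 bases were the same in Tgm5, 41 in F13a1, 38 in Tgm1, 38 in Tgm2 and 37 in Tgm7. The codon of Tgm3 lies in exon 6 at chr2:130029772-130029774 on the plus strand. The codons of the others, all on the minus strand, lie in exon 7 of Tgm1 (chr14:55709422-55709424), exon 6 of Tgm5 (chr2:121070760-121070762), exon 6 of Tgm2 (chr2:158131359-158131361), exon 7 of F13a1 (chr13:36946471-36946473) and exon 5 of Tgm7 (chr2:121103855-121103857). Over the whole coding sequences, the 15 pairs of members were 62.2% to 66.5% identical, and the longest stretch shared exactly by the transcripts of a pair was 24 bases, in Tgm5 and Tgm7. Reads were 75 bases long, so no pair of these transcripts holds a full read in common.

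Tgm3 was by far the most abundant member in both libraries. It had 10856 reads in WT and 11560 in ERAP1+/-, or 1397 CPM (95% interval 1371 to 1424) and 1243 CPM (1220 to 1266). That placed it 54th among all symbols in the WT library and 62nd in the ERAP1+/- library. TGM3 is made as a zymogen that proteases cut to an active form, and it is known from the upper epidermis and the hair follicle. The level in ERAP1+/- was 0.889 times that in WT (95% interval 0.866 to 0.913), a log2 difference of -0.17, and the sign rested on the scaling: it was -0.044 with scaling by the total count and 0.14 when the intestinal epithelium markers were set to a median of 0. The gene spans chr2:130012349-130050399 on GRCm38, has 13 exons, and overlaps no other protein-coding gene in the annotation.

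Tgm1 and Tgm5, the other epidermal members, had few reads. Tgm1, the membrane-bound enzyme of keratinocytes whose loss causes lamellar ichthyosis, had 22 reads in WT and 3 in ERAP1+/-. Its level was 2.83 CPM (95% interval 1.77 to 4.29) and 0.322 CPM (0.0665 to 0.942), which is 8.78-fold lower in ERAP1+/- (2.64 to 45.8). Tgm5, whose loss causes skin peeling in humans, had 15 and 3 reads, or 1.93 CPM (1.08 to 3.18) and 0.322 CPM, and was 5.99-fold lower (1.69 to 32.3). In both genes the intervals of the levels did not overlap between the libraries. The log2 difference of Tgm1 was -1.53 (-1.95 to -0.80) and that of Tgm5 was -1.15 (-1.60 to -0.39), and on this scale, which shrinks differences near 0 reads, both intervals include a difference of less than 2-fold. Summed, the 2 genes had 37 and 6 reads and were 7.38-fold lower in ERAP1+/- (3.09 to 21.4). Tgm1 spans chr14:55700009-55713926 and is overlapped by an antisense gene, and whether the counting used the strand is not given in the sources used here. Tgm5 spans chr2:121046111-121085841, beside Tgm7.

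Tgm2 was the second most abundant member. It had 724 reads in WT and 1026 in ERAP1+/-, or 93.2 CPM (95% interval 86.5 to 100.2) and 110.3 CPM (103.6 to 117.3). The level in ERAP1+/- was 1.18 times that in WT (1.08 to 1.30), a log2 difference of 0.24. Tgm2 spans chr2:158116402-158146436 on the minus strand, and its 3' part, up to position 158132297, overlaps Rprd1b on the plus strand. Rprd1b had 395 and 621 reads, and unless the counting used the strand, reads of Tgm2 and Rprd1b in the shared stretch cannot be told apart.

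F13a1 had 174 reads in WT and 126 in ERAP1+/-. Its level was 22.4 CPM (95% interval 19.2 to 25.98) and 13.5 CPM (11.3 to 16.1), a ratio of 0.605 (0.477 to 0.765) and a log2 difference of -0.69. These intervals do not overlap, but the difference is under 2-fold. F13a1 spans chr13:36867178-37050244, and antisense genes overlap it. Tgm7, a member whose role is little known, had no read in either library, and no fold can be given for it.

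**Figure D1:**
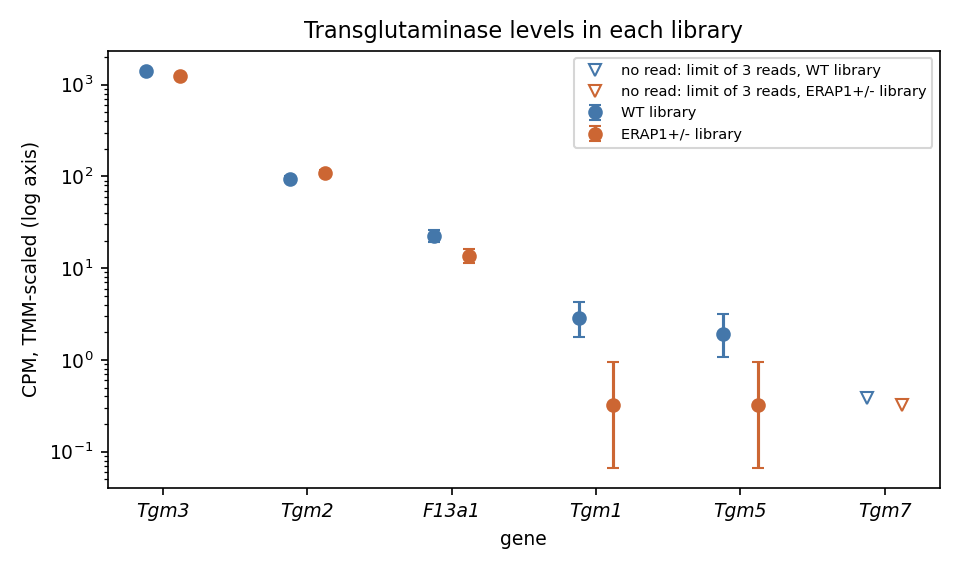
Levels of the 6 transglutaminase genes in the WT (blue) and ERAP1+/- (orange) libraries, as TMM-scaled CPM on a log axis. Points are the value of 1 library, bars are exact Poisson 95% intervals, which for Tgm3 and Tgm2 are smaller than the points, and open triangles mark the limit that 3 reads give where no read was found. Tgm3 sits at 1397 and 1243 CPM, a difference whose sign turns with scaling to intestinal epithelium markers, and Tgm1 and Tgm5 sit at 2.83 and 1.93 CPM in WT and at 0.322 CPM in ERAP1+/-.

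Within the WT library the order of the levels was Tgm3, Tgm2, F13a1, Tgm1, Tgm5 and Tgm7, and the intervals of Tgm1 and Tgm5 overlapped. In the ERAP1+/- library the order was the same except that Tgm1 and Tgm5 were tied. Because the method reads the 3' end of each transcript, CPM was not divided by length. Per kilobase of transcript, the levels in WT were 338 CPM for Tgm3, 25.9 for Tgm2, 5.67 for F13a1, 0.993 for Tgm1 and 0.739 for Tgm5, which keeps the order. In ERAP1+/- they were 301 for Tgm3, 30.7 for Tgm2, 3.43 for F13a1, 0.113 for Tgm1 and 0.123 for Tgm5.

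Of the reads of the 6 genes, 11791 in WT and 12718 in ERAP1+/-, Tgm3 took 92.1% (exact 95% interval 91.6% to 92.6%) in WT and 90.9% (90.4% to 91.4%) in ERAP1+/-. Tgm2 took 6.14% and 8.07%, and F13a1 took 1.48% and 0.991%. Tgm1 and Tgm5 together held less of the reads than F13a1 in both libraries, with Tgm1 at 0.187% and 0.0236%.

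Ratios to Tgm3 within a library do not depend on any scaling. Per 1000 reads of Tgm3, Tgm1 had 2.03 reads in WT and 0.260 in ERAP1+/-, which is 7.81-fold lower (95% interval 2.34 to 40.8). Tgm5 had 1.38 and 0.260 reads and was 5.32-fold lower (1.51 to 28.7). F13a1 had 16.03 and 10.9 reads, 1.47-fold lower (1.16 to 1.87). Tgm2 had 66.7 and 88.8 reads, a ratio of 1.33 (1.20 to 1.47). These ratios describe the same reads that chose the members.

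For 8013 symbols log2(CPM + 1) reached 4 in either library, and 428 of them (5.34%) differed more than 2-fold. The members past that level were Tgm3, Tgm2 and F13a1, and 0 of these 3 differed more than 2-fold. Among the 16142 symbols with at least 10 reads over both libraries, 5.63% were more than 2-fold lower and 2.99% more than 2-fold higher in ERAP1+/-. Of the 5 members with that many reads, 2 were more than 2-fold lower, Tgm1 and Tgm5, and none was more than 2-fold higher. Because the members were chosen with their reads known, nothing is read from this share. On the log2(CPM + 1) scale, Tgm5 lies just past the 2-fold line with a difference of -1.15, and F13a1 short of it with -0.69. As ratios of CPM, ERAP1+/- over WT, they were 0.167 and 0.605.

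**Figure D2:**
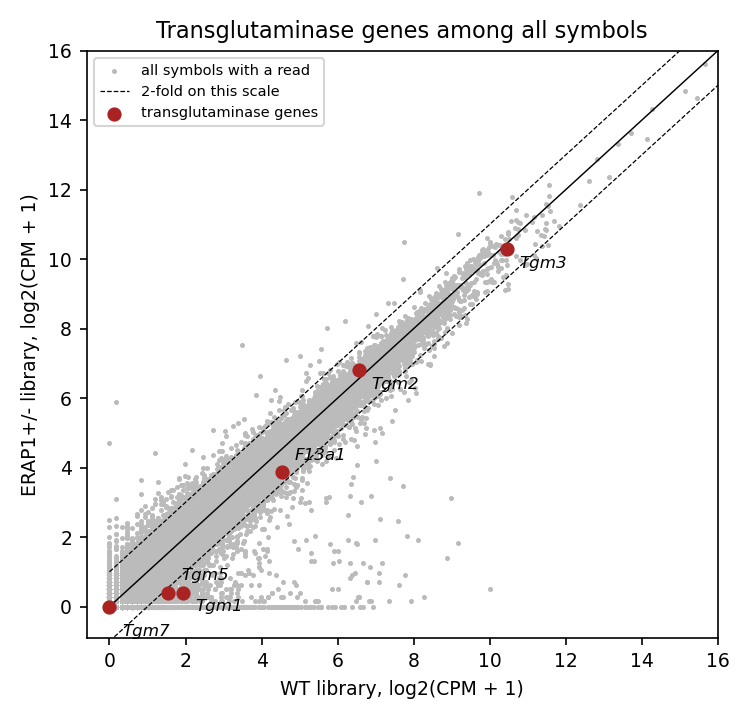
Each symbol with a read in 1 or both libraries, by its log2(CPM + 1) in the WT library (x axis) and the ERAP1+/- library (y axis). The solid line marks equal values and the dashed lines a 2-fold difference on this scale. Tgm3, Tgm2 and F13a1 lie between the dashed lines, Tgm1 and Tgm5 below the lower one, and Tgm7 at the origin.

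The remaining family genes gave little signal. Tgm6, which lies next to Tgm3 on chromosome 2 and is known from neural tissue, had 2 reads in WT and 0 in ERAP1+/-, under the 3 reads that a count of 0 allows. Tgm4, the prostate enzyme, and Epb42, a red cell membrane protein of the family that has lost the catalytic cysteine, had 0 reads in both libraries. The 5 erythroid markers with enough reads, of 7 listed, were within 2-fold, with a median log2 difference of 0.25.

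On the log2(CPM + 1) scale, the genes beside Tgm1, Tgm3 and Tgm5 differed less than Tgm1 and Tgm5. Around Tgm1, the log2 differences of the nearest protein-coding genes ran from -0.55 (Dhrs1, 1054 and 860 reads) to 0.62 (Gmpr2, 48 and 93 reads). Tgm5 lies between Epb42 and Tgm7, both with 0 reads, and the next genes outward, Ccndbp1 (238 and 287 reads) and Lcmt2 (62 and 80 reads), differed by 0.01 and 0.10 on the log2 scale. Beside Tgm3, Stk35 had 67 and 54 reads and Snrpb had 532 and 649. Pdyn, on the same side as Stk35, had 1 and 7 reads (0.63), so few that this scale shrinks its difference.

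Most substrates that epidermal transglutaminases cross-link were lower in ERAP1+/-, and lower epidermal genes were among the values that chose the members. Of 51 listed genes of the epidermal envelope, 40 had at least 10 reads, and 38 of these were more than 2-fold lower in ERAP1+/- and none more than 2-fold higher, with a median log2 difference of -4.24 against 0.00 over all symbols with that many reads. No read was found in ERAP1+/- for 24 of them, and with these set at 3 reads the median was -3.91. These 24 reached 10 reads through WT alone, so they could only count as lower. Tgm1 and Tgm5, at log2(CPM + 1) of 1.94 and 1.55 in WT, could not differ by as much on this scale. Flg, which encodes filaggrin, had 7952 and 4 reads, and Lor, which encodes loricrin, had 1528 and 5. Krt10, a keratin of differentiating epidermis, had 3922 and 72 reads, and its partner Krt1 had 1049 and 6. Sprr1a, a small proline-rich envelope protein, had 1077 and 44 reads. The 2 that differed less than 2-fold, named after their values were seen, were Sprr2a3 (2490 and 1749 reads, log2 difference -0.77) and Sprr2b (47 and 46 reads, -0.25). The summed level of the list was 3383 CPM in WT and 230 CPM in ERAP1+/-, while that of Tgm3 was 1397 and 1243 CPM. Sprr2a3 alone gave 320 CPM of the list's sum in WT and 188 CPM of it in ERAP1+/-.

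The epidermal lists and Tgm1 and Tgm5 were lower in the same library. The part of epidermal cells in the differences of these genes was not tested. Tgm3 differed by a log2 value of -0.17, while 18 of 18 suprabasal epidermis genes and 13 of 13 hair follicle genes were more than 2-fold lower. That contrast with epidermal genes was among the values that chose the members, so nothing is read from it. Which cells gave the reads of Tgm3 was not tested. The 14 intestinal epithelium markers had a median log2 difference of -0.31. Their range ran from -0.62 to 0.69. Among them, Epcam, an epithelial adhesion protein, had 9812 and 9413 reads (-0.32), Cdh1, which encodes E-cadherin, had 18810 and 16678 (-0.43), and Lgals4, a gut galectin, had 22956 and 27348 (-0.01). The 18 surface colonocyte genes with enough reads, of 19 listed, had a median of -0.68, with 4 more than 2-fold lower and 1 more than 2-fold higher. Of these 18 genes, 14 had a log2 difference below 0 and 4 above 0. Lypd8, with the most reads of the list, had 70445 and 48750 (-0.79), and Saa1 had 12924 and 14631 (-0.08). Car1 and Car4, carbonic anhydrases of the colon surface, had 13814 and 9366 reads and 15163 and 8391 reads. Goblet cell genes (10 of 10 with enough reads, median 0.81, 3 higher by more than 2-fold) and crypt genes (10 of 11, median 0.51, none past 2-fold) lay on the other side. In such pooled tissue, fewer cells of a type and less RNA per cell cannot be told apart.

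Substrates that many epithelia express moved less than the epidermal ones. Among 11 such genes, 4 were lower and none higher by more than 2-fold, and the median log2 difference was -0.83. Dsp, which encodes the desmosomal linker desmoplakin, had 6168 and 4282 reads, and Jup, its partner plakoglobin, had 1869 and 1257. Anxa2 and S100a10, which form a membrane-bound complex, had 5740 and 3861 reads and 4319 and 3040 reads. The 4 lower genes, named after their values were seen, were Ppl (398 and 72 reads), which encodes periplakin, Anxa1 (831 and 389), Serpinb2 (30 and 0) and Evpl (318 and 167), which encodes envoplakin.

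The lipid envelope that TGM1 helps to attach to the protein shell was represented by 18 genes, all with enough reads. Of these, 9 were more than 2-fold lower, none was more than 2-fold higher, and the median log2 difference was -1.09. Elovl4, an elongase for the very long fatty acids of skin, had 677 and 9 reads (-5.49). The others among the 6 with the most reads were within 2-fold on the log2(CPM + 1) scale. Ugcg, which makes glucosylceramide, had 448 and 426 reads, Abhd5, a cofactor of fat breakdown, had 297 and 289, and Elovl1 had 534 and 435. Slc27a4, a fatty acid transporter, had 337 and 201 reads (-0.97), and Aldh3a2, a fatty aldehyde dehydrogenase, had 194 and 260 (0.16).

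Of 9 listed genes for proteolytic activation of transglutaminases, 8 had enough reads, 1 was more than 2-fold lower and 7 were within 2-fold. The lower gene was Cst6, an inhibitor of cathepsin L and legumain that is known from the epidermis, with 848 reads in WT and 6 in ERAP1+/-, 169-fold lower (95% interval 77.4 to 462). Ctsl and Ctsd, cathepsins that can cut transglutaminase zymogens, had 1608 and 1295 reads (log2 difference -0.57) and 1733 and 1394 reads (-0.57). Ctsb, a related lysosomal protease, had 1731 and 1749 reads (-0.24). The inhibitor differed far more than the proteases and than Tgm3 itself, but lower epidermal genes beside Tgm3 were among the values that chose the members. Activation of the zymogens was not tested.

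Among 21 genes for partners and substrates of TGM2, 20 had enough reads, 1 was more than 2-fold lower and none more than 2-fold higher, with a median log2 difference of -0.14. The lower gene was Lgals3, which encodes galectin 3, with 22971 and 12664 reads (-1.12). Itgb1, the integrin subunit that binds TGM2 at the cell surface, had 2115 and 2685 reads (0.08). Txn1 and Pdia3, redox proteins that switch TGM2 on and off, had 9686 and 12649 reads (0.13) and 2031 and 2892 reads (0.25). The 12 endothelial markers, a cell type known for TGM2, had a median of -0.16 and none differed more than 2-fold. Fibroblast markers had a median of -0.14 (10 genes, 1 lower by more than 2-fold) and smooth muscle markers one of -0.91 (10 genes, 3 lower), and the part of these cells in the difference of Tgm2 was not tested.

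Of 14 factor XIII partners, 5 had enough reads and none differed more than 2-fold on the log2(CPM + 1) scale. Itga2b, also on the platelet list, had 29 and 13 reads (log2 difference -0.98). As a ratio of CPM it was 2.67-fold lower (95% interval 1.35 to 5.60). Fn1, which encodes fibronectin, had 1567 and 1420 reads (log2 difference -0.40), and F2r, a thrombin receptor, had 428 and 744 (0.53). F13a1 is known from macrophages, monocytes and platelets. All 13 macrophage markers were within 2-fold, with a median of 0.12 and summed levels of 280.3 CPM in WT and 338 CPM in ERAP1+/-. Csf1r, the receptor for the macrophage growth factor, had 287 and 539 reads (0.64), and Mrc1, the mannose receptor, had 325 and 357 (-0.12). Of 8 monocyte markers, 6 had enough reads, with a median of 0.94. Higher by more than 2-fold were 3, Ly6c2 (29 and 89 reads), S100a8 (49 and 165) and S100a9 (52 and 171). The other 3 were within 2-fold: Vcan, with 243 and 368 reads (0.33), Lyz2, with 146 and 296 (0.73), and Ccr2, with 82 and 83 (-0.22). Of 10 platelet and megakaryocyte markers, 5 had enough reads, with summed levels of 113 CPM and 57.7 CPM for the list. Ppbp had 394 and 66 reads (-2.68) and Gp1bb 70 and 24 (-1.48), while Pf4 had 374 and 415 (-0.11). The platelet genes Gp9, Gp1ba and Treml1 had 0 reads in both libraries. The part of these cells in the difference of F13a1 was not tested.

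**Figure D3:**
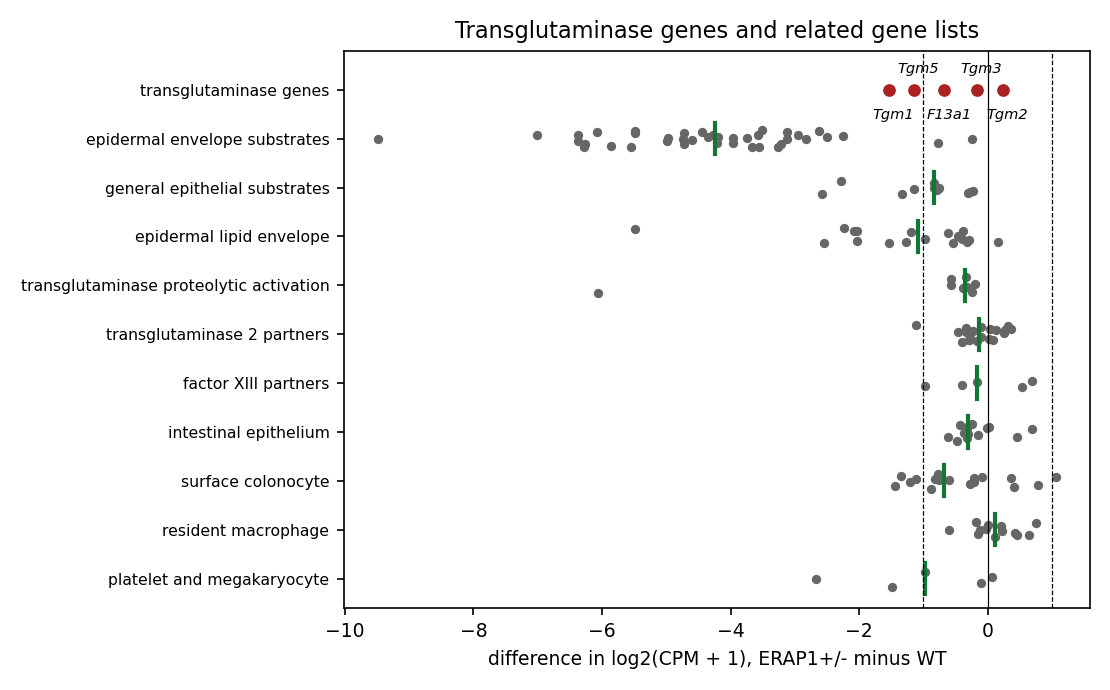
Difference in log2(CPM + 1), ERAP1+/- minus WT, for the 5 transglutaminase genes with at least 10 reads over both libraries (red) and for the genes of 10 lists with that many reads (dark grey points, green bars at the median). Solid and dashed lines mark no difference and a 2-fold difference. The epidermal envelope substrates have a median of -4.24, and the transglutaminase genes lie between -1.53 (Tgm1) and 0.24 (Tgm2), with Tgm3 at -0.17, a sign that turns when the data are scaled to intestinal epithelium markers.

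Over the 2 libraries, the symbols with log2(CPM + 1) values nearest to those of Tgm3 were Gsn (10335 and 10542 reads, a distance of 0.15), Ccnd2 (9778 and 11102 reads, 0.16), ND5 (9733 and 10620 reads, 0.20), Txn1 (0.21) and Cd63 (9399 and 10954 reads, 0.22). Nearest to Tgm1 were Aqp3 with the same reads as Tgm1 (a distance of 0), Cavin4 (23 and 3), Xkrx (23 and 3), Kap (21 and 3) and Orm1 (20 and 3). Such distances over 2 libraries describe a like level and difference only.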

How the data were processed

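RNA pooled from 3 mice gave 1 QuantSeq 3' library for each genotype. For each, the authors deposited raw counts per gene symbol, with no normalization. The methods give STAR with HTSeq-count in one place and Bowtie2 with RSEM on GENCODE GRCm38 in another, and the submitters' processing notes name Bowtie2 and RSEM. Which of these made the deposited counts, and whether strand was used, is not given in the sources used here. Here TMM factors (edgeR 4.0.16, R 4.3.3) were 0.958 for WT and 1.04 for ERAP1+/-. Intervals are exact Poisson intervals for levels, conditional binomial for ratios and Clopper-Pearson for shares (scipy 1.17.1). Levels and differences use log2(CPM + 1), a scale that understates differences of genes with few reads. With 1 library per genotype a quasi-likelihood fit has no residual degrees of freedom. The calls and intervals were tested on simulated data. These data held counting error only, with no variation between mice, and changes were planted only in genes well above the levels of Tgm1 and Tgm5. Genes named are all members, the other family members, up to 6 genes per list by summed reads, listed genes with no read where the text says so, the 2 nearest protein-coding genes on each side and the 5 symbols nearest to Tgm3 and to Tgm1, and exceptions are stated. The members and lists were chosen with earlier results of these data known. Positions come from GENCODE M21 on GRCm38. Protein sequences were not used here. Alternatives were scaling by the total count, by the size factors of DESeq2 1.42.0, TMM without skin, muscle and mitochondrial features, scaling with intestinal epithelium markers at a median of 0, a pseudocount of 0.1, other filters, a 4-fold threshold, CPM per kilobase and shares over all 9 family genes.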

Additional observations from a re-analysis of the deposited data

How the results depend on the processing

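No paired analysis was possible because there is only 1 library for WT and 1 for ERAP1+/-, and no library could be left out. Scaling by the total count moved the median of all genes by 0.12 on the log2 scale and scaling to the intestinal epithelium markers by 0.29. Under these, Tgm3 had log2 differences of -0.044 and 0.14, or -0.16 and -0.15 relative to those shifts, and Tgm2 reached 0.55 with the second. A pseudocount of 0.1 gave -2.79 for Tgm1 and -2.26 for Tgm5, because genes near 0 reads move most with it. The other 20 values of these 5 members stayed within their counting intervals, and Tgm1, Tgm2, Tgm5 and F13a1 kept their direction in all 5 alternatives. Without a filter on low values, 2 of 6 members and 1434 of 40879 genes differed more than 2-fold. With at least 10 reads in 1 or both libraries, 2 of 5 members and 1390 of 15334 genes did. Tgm1 and Tgm5 then enter, under the second filter through their WT reads alone, and nothing is read from these counts of members. A 4-fold threshold gave 160 genes. Scaling by the total count gave 414 genes (166 higher and 248 lower) in place of 428 (111 and 317). Of 23 list medians, 5 moved past their counting intervals with the total count, 6 with the pseudocount of 0.1 and 0 with DESeq2 size factors, and none changed sign. The tie of Tgm1 and Tgm5 in ERAP1+/- was broken per kilobase, with Tgm5 first. Depth limits Tgm1 and Tgm5, whose 3 reads each in ERAP1+/- leave wide intervals.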

Other observations

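Retinoic acid induces Tgm2 and represses epidermal differentiation in culture. Of 15 listed genes of its pathway 14 had at least 10 reads, and 11 of these had a log2 difference below 0, with 2 lower in ERAP1+/- by more than 2-fold, 1 higher and a median of -0.42 (-0.30 with scaling by the total count). Aldh1a1, which makes retinoic acid, had 440 and 461 reads, and the receptor gene Rxra had 409 and 352. On the log2(CPM + 1) scale 3 genes were past 2-fold, named after their values were seen. They were Crabp2 (110 and 0 reads), a retinoic acid carrier of skin, Cyp26b1 (132 and 28), which breaks retinoic acid down, and Aldh1a2 (0 and 19). Aldh1a3 (72 and 39 reads, -0.98) fell just short on that scale. As a ratio of CPM it was 2.21-fold lower (95% interval 1.48 to 3.35).

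Of 16 regulators of epidermal differentiation, 15 had enough reads and 5 were more than 2-fold lower, with none more than 2-fold higher and a median of -0.51. Klf4, which acts in both epidermis and colon, had 20240 and 15474 reads (-0.65), and Sox9, a factor of crypt and hair follicle cells, had 1770 and 2694 (0.35). The 5 lower genes, again named after their values were seen, were Grhl1 (153 and 8 reads), Fosl1 (62 and 4), Trp63 (23 and 0), Gata3 (71 and 25) and Barx2 (100 and 48).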
